A study of Mus musculus with 12 samples.

Results

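Described here are 38 genes of glucose metabolism in mouse liver: sugar transporters and the enzymes of glycolysis, gluconeogenesis, glycogen storage, the pentose phosphate pathway and fructose use. They were picked by symbol from a table of 24532 genes, with no measured value in the rule, and all 38 passed the filter on low counts, as did 13379 genes in all. The libraries are bulk RNA-seq of 12 livers from mice of the strain C57BL/6x129S6/SvEv at 20 wk of age, 4 in each of 3 groups. Het mice are the heterozygous controls, KO mice are Atp7b-/-, and KO_drug mice are Atp7b-/- and received a liver X receptor (LXR) agonist in their feed. Atp7b encodes the copper-exporting ATPase that is lost in Wilson disease. Which part of Atp7b the allele lacks, the agonist's name, dose and duration, the diet of the other mice, and sex and litter are not stated in the labels. No Het mice fed the agonist were analysed here, so every agonist value belongs to Atp7b-/- liver. In bulk tissue, fewer cells of a type and less RNA per cell cannot be told apart.

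Liver both burns and makes glucose. Glycolysis splits glucose to pyruvate, gluconeogenesis runs most of the same steps backwards through bypass enzymes, glycogen stores glucose, and the pentose phosphate pathway draws on glucose 6-phosphate to make NADPH and ribose. Many steps have isozymes from separate genes: hepatocytes carry the transporter GLUT2 (Slc2a2), phosphofructokinase L (Pfkl) and pyruvate kinase L (Pklr), whereas macrophages, other non-parenchymal cells and dividing cells carry more GLUT1 (Slc2a1), hexokinases 1 to 3 (Hk1, Hk2 and Hk3), phosphofructokinase P (Pfkp) and pyruvate kinase M (Pkm). LXR is a sterol-sensing nuclear receptor that induces lipid-making genes in liver.

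Promoter windows are shown for Hk2, whose RNA differed with genotype and with the agonist, and for G6pdx, the entry enzyme of the pentose phosphate pathway. The windows are the 250 bases before a RefSeq start (build GRCm38.p6), read 5′ to 3′ on the gene's strand. Each window adjoins the upstream end of its gene. Capitals mark, in Hk2, each match to ACGTG, the core letters bound by hypoxia-inducible factors, and, in G6pdx, the match to TGACNNNGC, the core of the antioxidant response element, on either strand. Both genes lie on the minus strand.
Hk2 chr6:82774455-82774704: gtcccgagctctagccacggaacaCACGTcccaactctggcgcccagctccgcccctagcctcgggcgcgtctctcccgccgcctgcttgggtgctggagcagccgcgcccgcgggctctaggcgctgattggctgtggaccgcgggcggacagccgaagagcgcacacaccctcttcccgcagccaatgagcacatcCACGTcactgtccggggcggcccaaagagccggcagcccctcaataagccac
G6pdx chrX:74428881-74429130: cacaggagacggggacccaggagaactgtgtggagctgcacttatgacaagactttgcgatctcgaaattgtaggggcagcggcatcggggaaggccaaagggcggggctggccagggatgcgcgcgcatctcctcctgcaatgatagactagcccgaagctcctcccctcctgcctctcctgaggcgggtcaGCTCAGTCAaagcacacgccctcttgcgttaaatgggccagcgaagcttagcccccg
RefSeq windows were at hand for 36 of the 38 genes, in 55 entries (all but Slc2a4 and Gys2). On either strand, ACGTG was in the windows of 13 of the 36 genes (Aldoa, Hk2, Hk3, Khk, Ldha, Pcx, Pfkfb3, Pfkm, Pgam1, Pgk1, Pkm, Pygl and Slc2a1), and in 18.5% of all 27025 genes with a window. TGACNNNGC was in those of 5 of the 36 (Aldoa, Fbp1, G6pc, G6pdx and Hk1), against 11.5% of all genes. The E-box CACGTG, which contains ACGTG, was in those of 5 of the 36 (Khk, Ldha, Pcx, Pfkfb3 and Pfkm), against 6.86% of all genes. Counted by window, ACGTG, TGACNNNGC and CACGTG were in 16, 5 and 5 of the 55 windows here. Over all 32851 promoters the shares per window of this length were 16.6%, 10.2% and 6.02%. The carbohydrate response element, taken as 2 exact CACGTG boxes 5 bases apart, was in 0 of the promoters, and the LXR element, taken as a direct repeat of AGGTCA spaced by 4 bases, was in 5, none of them a window of these genes. GC content differed too, with a median of 58.0% over the 55 windows and 52.4% over all. A match describes letters only and shows no binding.

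Library totals ran from 16535938 to 28329751 counts. Atp7b itself was lower in every KO and KO_drug library (1.27 to 3.49 CPM) than in every Het library (9.90 to 16.2 CPM). CPM are counts per 1e6 counts on scaled library sizes, and values listed by library run in order of animal number (Het 1 to 4, KO 2, 4, 5 and 6, KO_drug 1 to 4). Libraries KO 5 and KO 6 stood apart by Xist, at 81.8 and 17.8 CPM against at most 0.425 CPM in the other 10 libraries. The Y-linked Ddx3y read 0.379 CPM for KO 5 and 64.4 for KO 6, against 79.5 to 111 CPM in the others, so KO 6 held both. The sex of these mice is not in the labels, and results were also computed without both libraries. The macrophage and Kupffer cell markers rose together in KO: all 12 were called higher than in Het and 9 of 12 fell with the agonist. Their summed level was 492 to 670 CPM in Het, 1193 to 2626 CPM in KO and 556 to 1242 CPM in KO_drug, and KO_drug 1 was the highest of its group. Other cell lists moved the same way in part. Higher in KO were 6 of 6 tested neutrophil markers, 5 of 6 T and NK cell and 1 of 3 B and plasma cell markers. So were 3 of 8 stellate cell, 3 of 8 cholangiocyte (1 lower) and 3 of 8 endothelial markers. Over all tested markers of these lists, in the same order, 2, 3, 2, 4, 2 and 2 fell with the agonist (1 cholangiocyte marker rose). The summed endothelial markers had a median of 452 CPM in Het and 448 CPM in KO. Of 6 erythroid markers 0 rose and 1 fell in KO, and 0 were called with the agonist. All 6 proliferation markers were higher in KO (summed 118 to 180 CPM, against 5.52 to 14.97 CPM in Het). With the agonist 1 of the 6 fell, and their sum was 68.4 to 137 CPM. In KO_drug 5 of the 6 were called higher than in Het. Of 10 hepatocyte markers 8 fell in KO and 3 rose with the agonist. As a share of each library, the 38 genes made up 0.784 ± 0.0851% (Het), 0.912 ± 0.0410% (KO) and 0.709 ± 0.0923% (KO_drug) of all counts (mean ± SD, n = 4). That share is of unscaled totals and depends on what else fills a library. The major urinary protein (Mup) genes took 10.7 to 14.4% of counts in Het, 0.716 to 2.08% in KO and 2.07 to 4.53% in KO_drug. Counts that 2 overlapping genes share may have been split by the authors' counting, whose strand use is not given. Of the 38 genes, 12 overlap another coding gene, among them Hk3, Pfkp, Pklr, Pfkfb1 and G6pdx on the opposite strand and Pgls on the same strand. Named pseudogenes exist for Aldoa, Gapdh, Pgk1, Pgam1 and Ldha.

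In KO against Het, 8 of the 38 genes rose (Hk1, Hk2, Hk3, Pfkp, Pkm, Gpi1, Pck2 and Pgd) and 6 fell (Pfkl, Pgk1, Slc37a4, Pgls, Rpe and Khk), while 24 did not pass the test. That is 14 of 38 where 40.7% of all tested genes were called, 23.0% higher and 17.7% lower, so the number called was near the background. Calls here mean an adjusted p under 0.05 in edgeR's quasi-likelihood test, with Benjamini-Hochberg adjustment across the tested genes. The median change was -0.02 on the log2 scale for the 38 genes and 0.02 for all tested genes. In 16 of the 38 the groups did not overlap, against 39.3% of all genes.

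With the agonist, in KO_drug against KO, 6 genes rose (Slc2a4, Gckr, Pfkfb1, Pgam1, Pygl and Khk) and 6 fell (Hk1, Hk2, Hk3, Pfkp, Pkm and Pck2). These 12 of 38 stand beside 19.8% of all tested genes, of which 8.80% were called higher. The median change was 0.18 for the 38 genes and -0.02 for all genes on the log2 scale, and 11 of 38 did not overlap, against 23.9% of all genes. In KO_drug against Het, 6 rose (Slc2a4, Pfkfb1, Gpi1, G6pdx, Pgd and Rpia) and 1 fell (Pfkl), beside 21.4% of all genes called, 13.0% higher and 8.45% lower. There the medians were 0.08 and 0.00, and 9 of 38 did not overlap, against 24.6% of all genes. The 3 comparisons share groups: KO stands in the first and the second, Het in the first and the third. A gene high in the KO libraries is thereby both higher than in Het and higher than in KO_drug.

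**Figure D1:**
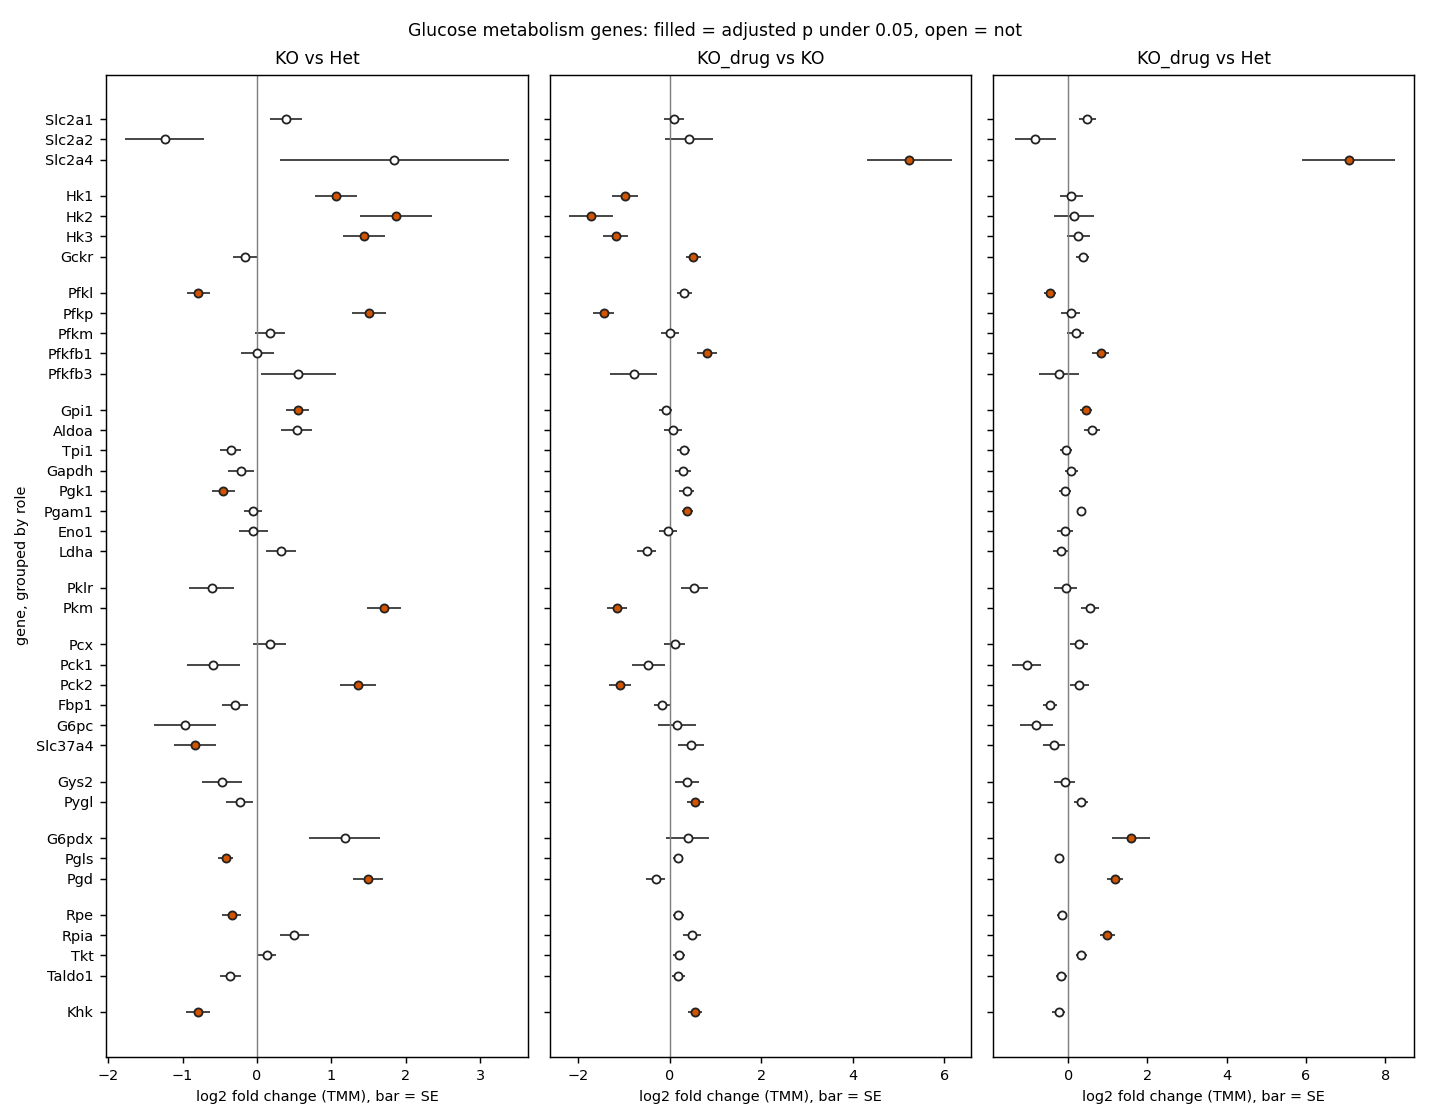
Log2 fold changes of the 38 genes (x axis, TMM scaling) in the 3 comparisons, grouped by role on the y axis, where bars are standard errors and filled points are called at an adjusted p under 0.05. Pkm, Pfkp and the 3 hexokinases lie to the right in KO against Het and to the left in KO_drug against KO, and Slc2a4 lies farthest right in both comparisons of KO_drug.

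The number of falls depended on how libraries were scaled. Scaling by the total count in place of TMM moved the median of all genes to 0.54 in KO against Het, and 19 members were then called higher and 0 lower. In KO_drug against KO it moved that median to -0.36, with 1 member higher and 10 lower. In KO_drug against Het the median became 0.18, with 13 higher and 0 lower. Total-count scaling, unlike TMM, called Slc2a1, Gckr, Pfkm, Aldoa, Pgam1, Eno1, Ldha, Pcx, G6pdx, Rpia and Tkt higher in KO against Het. In KO_drug against KO it added falls of Gpi1, Ldha, Fbp1 and Pgd. In KO_drug against Het it added rises of Slc2a1, Gckr, Aldoa, Pgam1, Pkm, Pygl and Tkt. The changes and calls below are given on the TMM scale unless another is named. Of the 14 calls in KO against Het, 7 were made in each of 16 alternatives (Hk1, Hk2, Hk3, Pfkp, Pkm, Pck2 and Pgd). Of the 12 with the agonist, 3 were (Hk3, Pfkp and Pkm), and of the 7 against Het, 3 were (Slc2a4, Pgd and Rpia), there in all alternatives that gave a value. A fit with the replicate number as a block is 1 of these, and it stands apart from the ranges and losses given per gene. In that fit KO 5 and KO 6 share their number with no other library, so comparisons with KO rest on KO 2 and KO 4.

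**Figure D2:**
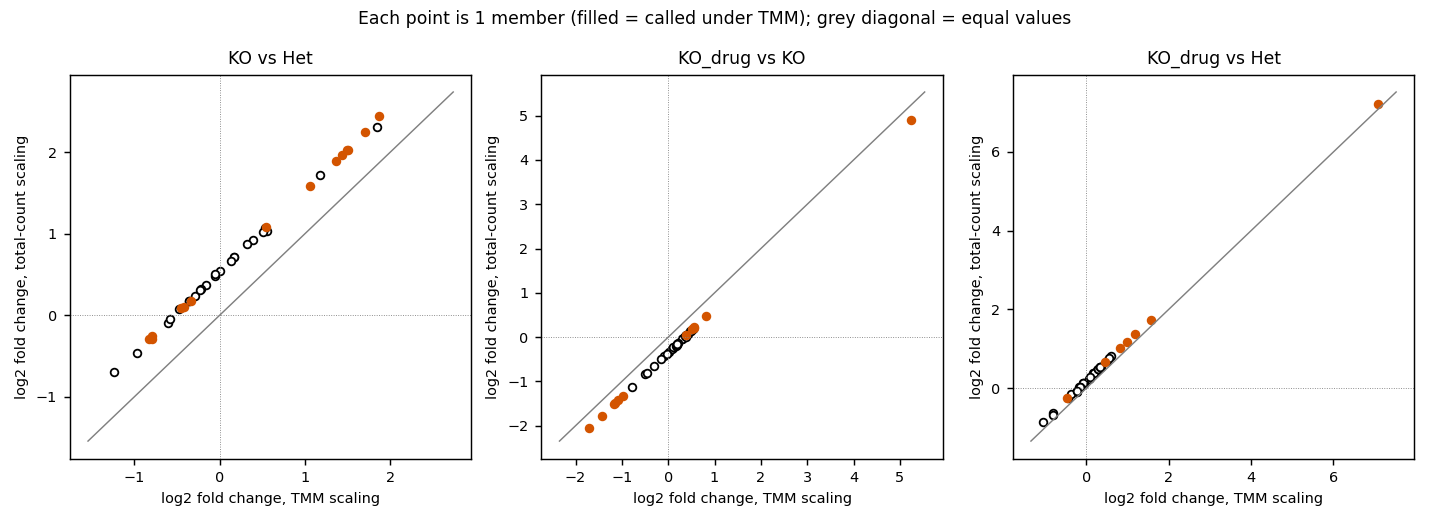
Log2 fold change of each of the 38 genes under TMM scaling (x axis) and total-count scaling (y axis), where filled points were called under TMM and the diagonal marks equal values. The points run parallel to the diagonal, above it in KO against Het and below it in KO_drug against KO, by about the shift of all genes (0.54 and -0.36).

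Glucose transporters carry the sugar across the cell membrane. Slc2a4 (GLUT4), the insulin-regulated transporter best known from muscle and fat, was almost absent without the agonist. In CPM it read 0, 0, 0.106 and 0 in Het, 0.235, 0, 0.146 and 0 in KO and 7.07, 0.521, 6.73 and 2.76 in KO_drug. Every KO_drug library lay above every other library, and within the group KO_drug 2 was the lowest. The rise was called against KO (log2 change 5.23, SE 0.93, adjusted p 0.00307) and against Het (log2 change 7.08, SE 1.17, adjusted p 0.000856). Summed over libraries it had 2 counts (Het), 13 counts (KO) and 324 counts (KO_drug). The ratio of levels of KO_drug to KO was 37.2 (95% interval 21.5 to 70.7) and that of KO_drug to Het 164 (45.2 to 1364), intervals that cover counting error only. Of 9 muscle, fat and pancreas markers, 7 had 0 counts in every KO_drug library (Ckm, Myh4, Acta1, Myl1, Adipoq, Plin1 and Prss1). The fat marker Cfd had a mean of 0 (Het), 0.0904 (KO) and 0.171 CPM (KO_drug), and the pancreas marker Cela1 31.1, 13.4 and 12.9 CPM. The level of Slc2a4 in KO_drug was low, at 1.16 ± 0.863 FPKM (fragments per kilobase and 1e6 fragments, mean ± SD, n = 4) beside 53.3 ± 47.4 FPKM for Slc2a2 in the same group.

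Slc2a2 (GLUT2), the main glucose carrier of hepatocytes, stood at 181, 373, 394 and 325 CPM in Het, 147, 102, 143 and 145 in KO and 30.6, 405, 153 and 130.4 in KO_drug. All KO libraries lay below all Het libraries, yet the change did not pass the test (log2 change -1.24, SE 0.53, adjusted p 0.0751). KO_drug spanned the widest range of any group, with library 1 far below and library 2 above all others, and its change against KO was 0.42 (SE 0.52, adjusted p 0.611). Slc2a1 (GLUT1), the basal transporter of most cells, stood at 5.93, 8.73, 10.8 and 10.4 CPM in Het, 10.9, 8.87, 12.9 and 14.4 in KO and 13.5, 10.5, 15.3 and 10.9 in KO_drug. Its groups overlapped in each comparison and none was called, with log2 changes of 0.39, 0.10 and 0.49 in KO against Het, KO_drug against KO and KO_drug against Het.

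Hexokinases trap glucose in the cell as glucose 6-phosphate. Hk2, the insulin- and growth-responsive form of muscle and fat, stood at 0.567, 1.98, 1.64 and 1.12 CPM in Het, 7.22, 5.93, 2.95 and 3.296 in KO and 2.32, 1.67, 0.386 and 1.49 in KO_drug. It rose in KO (log2 change 1.87, SE 0.49, adjusted p 0.0084) and fell with the agonist (log2 change -1.72, SE 0.48, adjusted p 0.0259), with no overlap between KO and either other group. Hk1, the form of brain and red cells, stood at 3.71, 3.43, 3.97 and 5.31 CPM in Het, 10.7, 12.04, 5.05 and 6.46 in KO and 6.01, 3.54, 3.81 and 3.98 in KO_drug. It rose in KO (log2 change 1.06, SE 0.28, adjusted p 0.0096) and fell with the agonist (log2 change -0.98, SE 0.28, adjusted p 0.0287), with KO 5 inside the range of Het and of KO_drug. Hk3, a form found mostly in white blood cells, stood at 3.66, 4.83, 4.39 and 4.898 CPM in Het, 19.1, 10.2, 10.3 and 8.49 in KO and 7.57, 3.804, 3.81 and 6.05 in KO_drug. KO 2 was the highest library, and KO lay wholly above both other groups in its rise (log2 change 1.44, SE 0.29, adjusted p 0.00164) and its fall with the agonist (log2 change -1.18, SE 0.28, adjusted p 0.0121). The summed neutrophil markers spanned 2.43 to 11.7 CPM (Het), 17.1 to 99.5 CPM (KO) and 11.2 to 36.3 CPM (KO_drug), and their part in the Hk3 change was not tested.

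In Hk1, Hk2, Pfkp and Pkm the libraries KO 2 and KO 4 lay above KO 5 and KO 6, and in the summed macrophage markers they did too (2626 and 2056 against 1193 and 1453 CPM). The part of those cells in these changes was not tested. Without KO 5 and KO 6 the changes in KO against Het were 1.41 for Hk1, 2.24 for Hk2 and 1.97 for Pkm on the log2 scale, all called. The agonist's fall of Hk1 was lost without any 1 of KO 2, KO 4, KO_drug 2, KO_drug 3 or KO_drug 4 (adjusted p 0.00365 to 0.0907 over 15 alternatives), and that of Hk2 without any 1 of KO 2, KO 4, KO_drug 3 or KO_drug 4 (adjusted p 0.0036 to 0.076 over 15 alternatives). Against Het the 3 genes in KO_drug differed by 0.08, 0.15 and 0.26 for Hk1, Hk2 and Hk3, and none was called. Gckr, a regulatory protein of the hepatocyte nucleus, averaged 78.3 ± 9.81 CPM (Het), 70.3 ± 11.4 CPM (KO) and 101 ± 19.01 CPM (KO_drug). It rose with the agonist (log2 change 0.52, SE 0.16, adjusted p 0.0405), with KO_drug 1 inside the range of KO, and the call was lost without any 1 of KO 4, KO 5, KO 6, KO_drug 2, KO_drug 3 or KO_drug 4, under total-count scaling, with no filter, on deposited FPKM, with only the 2 groups fitted and without KO 5 and KO 6 together (adjusted p 0.0126 to 0.39 over 15 alternatives).

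**Figure D3:**
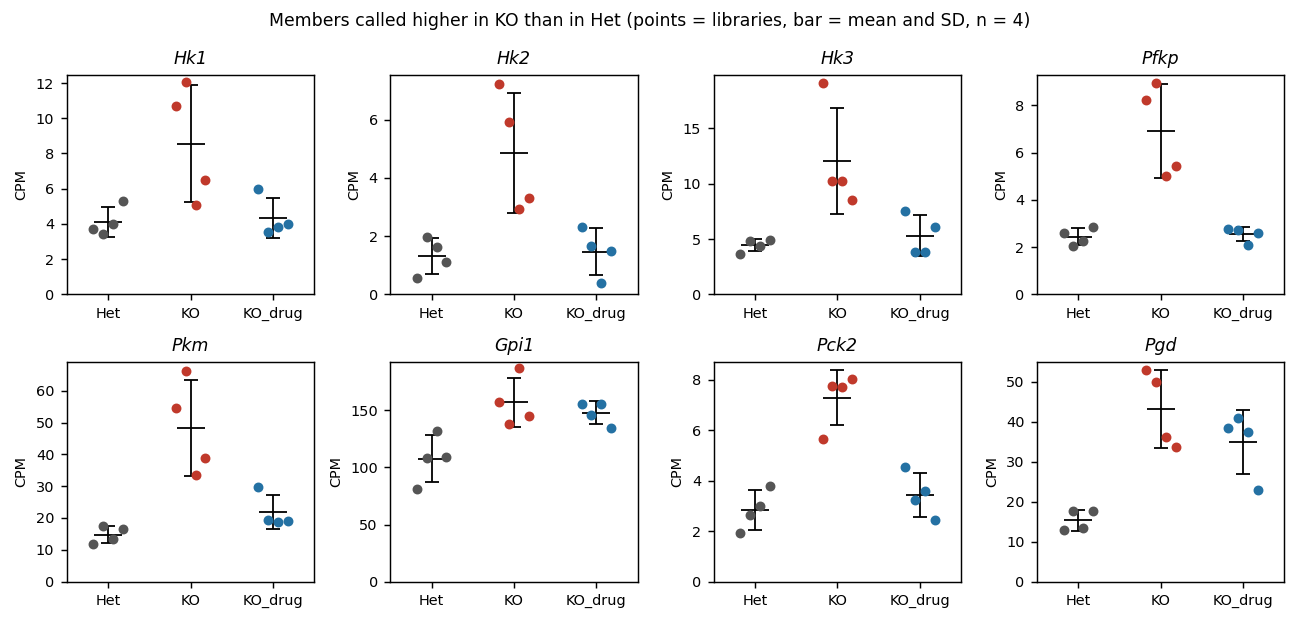
CPM (y axis, from 0) of the 8 genes called higher in KO than in Het, where points are libraries and bars the mean ± SD of 4. In Hk2, Hk3, Pfkp, Pkm and Pck2 every KO library lies above all others, and in Gpi1, Pgd and Pkm every KO_drug library lies above every Het library.

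Phosphofructokinase commits sugar to glycolysis. Pfkp, the platelet form, stood at 2.58, 2.03, 2.27 and 2.86 CPM in Het, 8.24, 8.96, 5.02 and 5.45 in KO and 2.78, 2.71, 2.096 and 2.602 in KO_drug. All 4 KO libraries lay above every other library, and the rise (log2 change 1.50, SE 0.23, adjusted p 0.000273) and the fall with the agonist (log2 change -1.44, SE 0.23, adjusted p 0.0018) were both called. Pfkl, the liver form, stood at 35.4, 52.8, 46.3 and 45.9 CPM in Het, 32.6, 23.2, 24.5 and 23.9 in KO and 39.8, 31.7, 31.5 and 27.7 in KO_drug. It fell in KO (log2 change -0.79, SE 0.16, adjusted p 0.0016) with no overlap, KO 2 being the highest of its group, and total-count scaling ended that call (log2 -0.25). In KO_drug it remained lower than in Het (log2 change -0.46, SE 0.16, adjusted p 0.0493), a call that was lost without any 1 of Het 2, Het 3, Het 4, KO_drug 2, KO_drug 3 or KO_drug 4, under RLE scaling, under total-count scaling, with no filter, on deposited FPKM and with only the 2 groups fitted (adjusted p 0.0189 to 0.239 over 14 alternatives). Pfkm, the muscle form, averaged 14.5 ± 3.66 CPM, 16.3 ± 3.92 CPM and 16.4 ± 2.395 CPM in Het, KO and KO_drug and was not called in any comparison.

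Fructose 2,6-bisphosphate, made and broken down by the PFKFB enzymes, switches liver between glycolysis and gluconeogenesis. Pfkfb1, the liver enzyme, stood at 12.3, 12.4, 25.8 and 23.2 CPM in Het, 16.1, 19.98, 17.7 and 20.2 in KO and 34.6, 32.3, 28.9 and 34.03 in KO_drug. It rose with the agonist both against KO (log2 change 0.81, SE 0.22, adjusted p 0.0202) and against Het (log2 change 0.82, SE 0.22, adjusted p 0.0168), and KO_drug lay above every Het and KO library, while KO and Het overlapped with a log2 change of 0.00. The rise against KO was lost without KO 2, under total-count scaling, on deposited FPKM and without KO 5 and KO 6 together (adjusted p 0.00417 to 0.11 over 15 alternatives), and that against Het without Het 2 (adjusted p 0.00357 to 0.0503 over 14 alternatives). Pfkfb3, the inducible form of many tissues, stood at 14.96, 7.797, 5.08 and 29.2 CPM in Het, 39.4, 18.3, 15.2 and 10.8 in KO and 12.1, 6.41, 14.5 and 15.7 in KO_drug. Its libraries scattered within each group, with Het 4 and KO 2 highest, and it was not called in any comparison (log2 0.56, -0.79 and -0.23).

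The enzymes shared by glycolysis and gluconeogenesis changed little on the TMM scale. Of 8 such genes, Gpi1, which turns glucose 6-phosphate into fructose 6-phosphate, was the one that rose in KO. It averaged 108 ± 20.8 CPM (Het), 157 ± 21.6 CPM (KO) and 148 ± 10.2 CPM (KO_drug), and the groups did not overlap with Het in either KO (log2 change 0.55, SE 0.15, adjusted p 0.011) or KO_drug (log2 change 0.46, SE 0.15, adjusted p 0.0437), both called higher. The KO call of Gpi1 was lost without KO 5 and KO 6 together (adjusted p 0.122), and the KO_drug call was lost without any 1 of Het 1, Het 2, Het 4, KO_drug 1, KO_drug 2, KO_drug 3 or KO_drug 4, with no filter and with only the 2 groups fitted (adjusted p 0.0028 to 0.108 over 14 alternatives). Pgk1, which makes ATP from 1,3-bisphosphoglycerate, fell in KO from 325 ± 49.7 CPM to 238 ± 11.6 CPM (log2 change -0.45, SE 0.15, adjusted p 0.032). Under total-count scaling its change was 0.08, and the call was lost without any 1 of Het 2, Het 3, KO 2, KO 4, KO 5 or KO 6, under total-count scaling, on deposited FPKM and without KO 5 and KO 6 together (adjusted p 0.0162 to 0.625 over 15 alternatives). Pgam1, phosphoglycerate mutase, rose with the agonist from 116 ± 9.49 CPM to 152 ± 18.6 CPM (log2 change 0.39, SE 0.12, adjusted p 0.0412), with KO_drug 4 inside the range of KO, and that call was lost without any 1 of KO 2, KO 4, KO 5, KO_drug 1, KO_drug 2 or KO_drug 3, under total-count scaling, with no filter, on deposited FPKM and with only the 2 groups fitted (adjusted p 0.0155 to 0.878 over 15 alternatives). Aldoa (aldolase A), Tpi1 (triose phosphate isomerase), Gapdh, Eno1 (enolase) and Ldha (lactate dehydrogenase A) were not called in any comparison on the TMM scale. Of these, Aldoa came nearest, at 97.2 ± 14.9 CPM, 141 ± 13.3 CPM and 148 ± 48.8 CPM in the 3 groups (log2 0.53 with adjusted p 0.0525 in KO and 0.60 with 0.0508 in KO_drug against Het). Ldha was lower in all KO_drug than in all KO libraries, at 622 ± 118 CPM against 882 ± 135 CPM (log2 -0.50, adjusted p 0.0934). Total-count scaling called Aldoa (log2 1.07), Eno1 (0.50) and Ldha (0.87) higher in KO against Het. It also called Ldha lower with the agonist (log2 -0.84) and Aldoa higher in KO_drug against Het (log2 0.81). Gapdh, often taken as a reference gene, differed by -0.22, 0.30 and 0.08, and by 0.33, -0.05 and 0.28 under total-count scaling, with the sign turned in the first and the second.

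Pyruvate kinase makes the last ATP of glycolysis. Pkm, the form of macrophages, muscle and dividing cells, had the smallest adjusted p of the 38 genes in KO against Het. It stood at 11.8, 17.5, 13.3 and 16.6 CPM in Het, 54.6, 66.4, 33.4 and 38.9 in KO and 29.7, 19.2, 18.9 and 19.2 in KO_drug. Every KO library lay above every other library, and KO_drug lay above Het, with KO_drug 1 well above the 3 others. It rose in KO (log2 change 1.71, SE 0.23, adjusted p 0.000116) and fell with the agonist (log2 change -1.15, SE 0.23, adjusted p 0.0047), and in KO_drug against Het the change was 0.56 (adjusted p 0.101). The call was kept in every alternative, at log2 changes of 1.52 to 2.25 for the rise and -1.50 to -0.97 for the fall. Pklr, the form of liver and red cells, stood at 111, 98.6, 115 and 81.6 CPM in Het, 85.2, 55.2, 67.4 and 57.5 in KO and 44.3, 161, 108 and 74.1 in KO_drug. Its groups overlapped, KO_drug 1 being the lowest library and KO_drug 2 the highest, and the changes of -0.61 in KO and 0.54 with the agonist were not called (adjusted p 0.122 and 0.222). In FPKM, which allows levels of 2 genes to be compared, Pkm ran at 0.116 to 0.222 of the Pklr level in Het, 0.543 to 1.32 in KO, and 0.131 to 0.734 in KO_drug, where library 1 held the highest value and the others reached 0.283.

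Ratios of 2 isozymes within a library do not depend on library scaling. For 4 pairs of a broadly expressed and a liver form, the mean log2 ratio of counts was compared between groups by a two-sided exact permutation test of 4 against 4 libraries, which cannot go below 0.0286. Pkm to Pklr was higher in KO than in Het by 2.29 (exact p = 0.0286), Pfkp to Pfkl by 2.25 (exact p = 0.0286) and Slc2a1 to Slc2a2 by 1.60 (exact p = 0.0286), each with no overlap. With the agonist Pfkp to Pfkl was lower by a log2 difference of -1.72 (exact p = 0.0286) and Pfkfb3 to Pfkfb1 of -1.50 (exact p = 0.0286), whereas Pkm to Pklr differed by -1.54 (exact p = 0.0857) with KO_drug 1 among the KO values. Pfkfb3 to Pfkfb1 differed by 0.61 in KO against Het (exact p = 0.514). Slc2a1 to Slc2a2 differed by 0.19 with the agonist (exact p = 0.743), and by -0.53 without KO_drug 1. After Benjamini-Hochberg adjustment over the 12 tests, the smallest adjusted exact p was 0.0686, so none passed. Given that floor, no ratio could pass unless most of the 12 tests reached it, so the adjusted values cannot decide on any single pair. The macrophage marker sums above move with the Pkm to Pklr ratio, and their part in it was not tested.

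Gluconeogenesis needs pyruvate carboxylase, PEPCK, fructose bisphosphatase and glucose 6-phosphatase. Pck1, the cytosolic PEPCK and the gene of highest FPKM among the 38 in Het (747 ± 223 FPKM), stood at 1519, 3220.2, 3182 and 3764 CPM in Het, 2565, 1556, 1521 and 2143 in KO and 728, 2271, 1732 and 917 in KO_drug. All groups overlapped, and its changes of -0.59 in KO, -0.46 with the agonist and -1.05 in KO_drug against Het were not called (adjusted p 0.214, 0.395 and 0.0569). Pck2, the mitochondrial PEPCK, which is sparse in mouse liver, stood at 1.91, 2.65, 3.02 and 3.78 CPM in Het, 5.66, 7.75, 7.73 and 8.03 in KO and 4.54, 3.23, 3.59 and 2.44 in KO_drug. KO lay wholly above both other groups, with its lowest value in KO 2, and Pck2 rose in KO (log2 change 1.36, SE 0.24, adjusted p 0.000848) and fell with the agonist (log2 change -1.08, SE 0.24, adjusted p 0.00864). Without KO 5 and KO 6 the fall was not called (log2 -0.91, adjusted p 0.0582).

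Fbp1, fructose bisphosphatase of liver, stood at 955, 1213, 1304 and 1066 CPM in Het, 775, 772, 1120.5 and 1038 in KO and 895, 938, 776 and 703 in KO_drug. KO_drug lay below every Het library, but no comparison passed the test (log2 -0.29, -0.16 and -0.45). G6pc, the catalytic glucose 6-phosphatase that releases free glucose, stood at 576, 587, 227 and 454 CPM in Het, 275, 219, 183 and 269 in KO and 108, 245, 534 and 172 in KO_drug. Het 3 lay among the KO values and KO_drug 3 among the Het values, and the changes of -0.96, 0.16 and -0.80 were not called (adjusted p 0.0801, 0.818 and 0.195). Slc37a4, which carries glucose 6-phosphate into the endoplasmic reticulum for that enzyme, averaged 173 ± 71.3 CPM (Het), 97.4 ± 21.2 CPM (KO) and 135 ± 23.3 CPM (KO_drug). It fell in KO (log2 change -0.83, SE 0.28, adjusted p 0.0305), with Het 1 among the KO values. That call was lost without any 1 of Het 3, Het 4, KO 2 or KO 4, under total-count scaling and on deposited FPKM (adjusted p 0.00201 to 0.498 over 15 alternatives). Pcx, pyruvate carboxylase, averaged 278 ± 90.3 CPM, 312 ± 49.2 CPM and 337 ± 37.01 CPM and was not called. KO_drug 1 held the lowest Slc2a2, G6pc, Pck1 and Pklr of its group and the highest Pkm, Hk1 and macrophage marker sum. Its hepatocyte marker sum (72770 CPM) lay inside the range of its group (61760 to 83136 CPM). Its Pfkl and Pfkfb1, the liver forms, were the highest of the group.

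**Figure D4:**
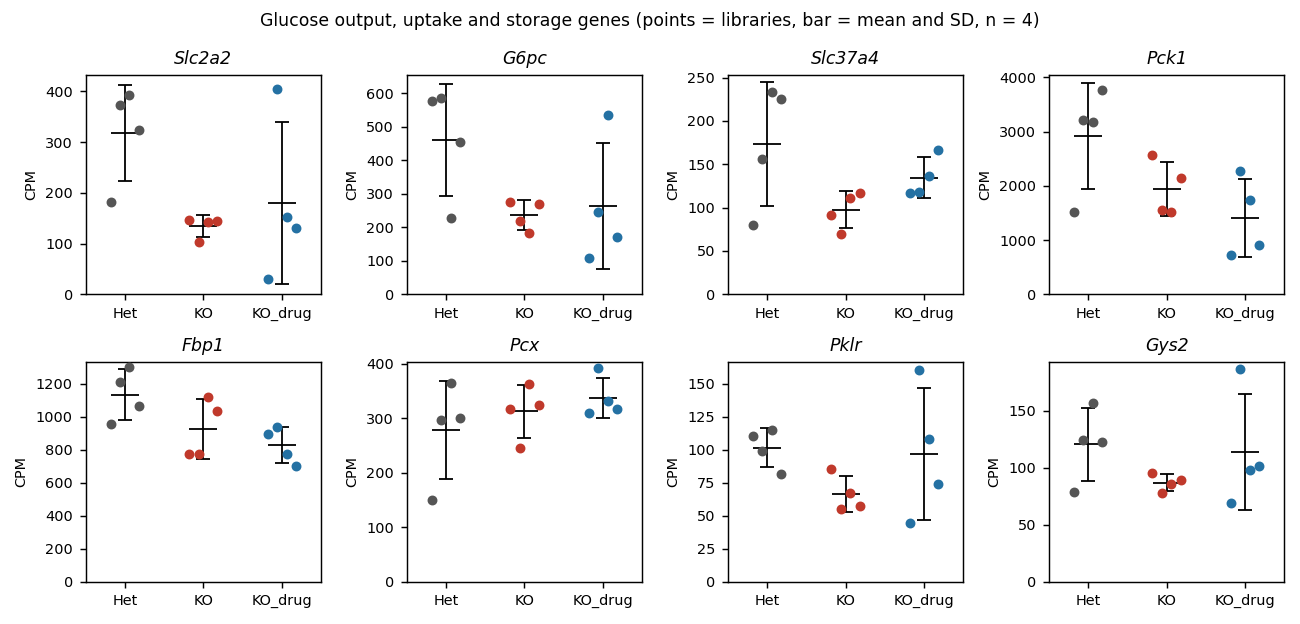
CPM (y axis, from 0) of 8 genes of glucose output, uptake and storage in hepatocytes, where points are libraries and bars the mean ± SD of 4. The KO_drug libraries scatter widely in Slc2a2, G6pc and Pklr, and in KO the Slc2a2 values lie below those of Het.

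Glycogen is built by glycogen synthase and taken down by phosphorylase. Gys2, the liver synthase, stood at 78.6, 124, 157 and 122 CPM in Het, 95.03, 78.03, 85.3 and 89.03 in KO and 69.04, 187, 97.8 and 101 in KO_drug. The groups overlapped, KO_drug 2 was the highest library, and no change was called (log2 -0.47, 0.39 and -0.08). Pygl, the liver phosphorylase, stood at 335, 552, 578 and 479 CPM in Het, 439, 341, 468 and 404 in KO and 581, 562, 742 and 562 in KO_drug. All KO_drug libraries lay above all KO libraries, KO_drug 3 highest, and Pygl rose with the agonist (log2 change 0.57, SE 0.18, adjusted p 0.0439). That call was lost without any 1 of KO 2, KO 4, KO 5, KO 6, KO_drug 1, KO_drug 2, KO_drug 3 or KO_drug 4, under total-count scaling, with no filter, on deposited FPKM and without KO 5 and KO 6 together (adjusted p 0.0142 to 0.25 over 15 alternatives). Khk, fructokinase, which commits fructose to liver metabolism, averaged 311 ± 34.6 CPM (Het), 179.7 ± 16.5 CPM (KO) and 264 ± 60.3 CPM (KO_drug). It fell in KO (log2 change -0.79, SE 0.16, adjusted p 0.00191) and rose with the agonist (log2 change 0.56, SE 0.16, adjusted p 0.029), with no overlap in either. The fall was not called under total-count scaling (log2 -0.29), and the rise was lost without any 1 of KO 2, KO 4, KO 5, KO_drug 3 or KO_drug 4, under total-count scaling, on deposited FPKM, with only the 2 groups fitted and without KO 5 and KO 6 together (adjusted p 0.00688 to 0.437 over 15 alternatives).

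**Figure D5:**
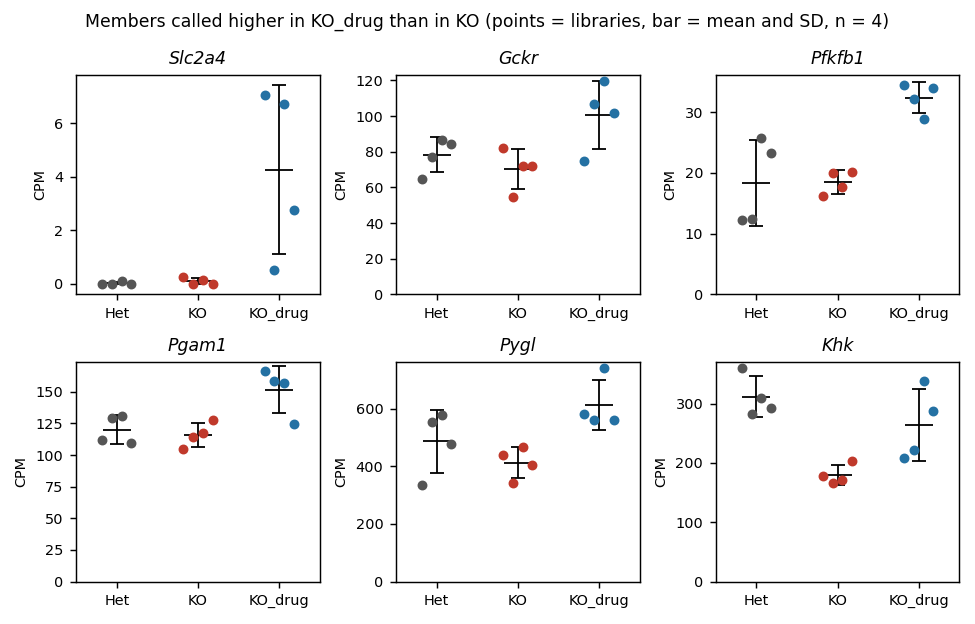
CPM (y axis) of the 6 genes called higher in KO_drug than in KO, where points are libraries and bars the mean ± SD of 4. Slc2a4 is near 0 outside KO_drug, Pfkfb1 is above both other groups, and for Khk 2 of the 4 KO_drug libraries lie within the range of Het.

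The oxidative arm of the pentose phosphate pathway makes NADPH. G6pdx, its entry enzyme, stood at 4.02, 6.29, 4.87 and 8.93 CPM in Het, 17.5, 19.00, 8.93 and 9.296 in KO and 8.88, 21.8, 34.9 and 6.32 in KO_drug. KO_drug 3 and KO_drug 2 were highest, then KO 4 and KO 2, while KO 5 and KO 6 barely exceeded the highest Het library and KO_drug 1 and KO_drug 4 lay within the range of Het. The rise against Het was called in KO_drug (log2 change 1.57, SE 0.48, adjusted p 0.0325) and not in KO (log2 change 1.18, SE 0.48, adjusted p 0.0632), although in KO the groups did not overlap and in KO_drug they did. Without KO 5 and KO 6 the KO change was called (log2 1.54, adjusted p 0.0469), and the KO_drug call was lost without any 1 of Het 1, Het 2, Het 3, KO_drug 2 or KO_drug 3 and on deposited FPKM (adjusted p 0.00447 to 0.125 over 14 alternatives). Pgd, the second NADPH-making enzyme, stood at 12.8, 17.6, 13.3 and 17.6 CPM in Het, 52.97, 49.8, 36.2 and 33.7 in KO and 38.4, 40.96, 37.5 and 22.99 in KO_drug. All KO and KO_drug libraries lay above all Het libraries, and the rises in KO (log2 change 1.49, SE 0.21, adjusted p 0.000141) and in KO_drug (log2 change 1.19, SE 0.21, adjusted p 0.00116) were called in every alternative. The agonist's own difference was -0.31 (adjusted p 0.306). Pgls, the lactonase between those steps, fell in KO from 29.98 ± 2.23 CPM to 22.4 ± 2.21 CPM (log2 change -0.42, SE 0.10, adjusted p 0.00554) without overlap, and under total-count scaling it stood at 0.10.

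The non-oxidative arm turns ribulose 5-phosphate into ribose and glycolytic sugars. Rpia, the isomerase that makes ribose 5-phosphate, stood at 3.04, 2.65, 3.12 and 3.16 CPM in Het, 3.93, 4.53, 4.93 and 3.59 in KO and 7.01, 4.17, 6.73 and 5.89 in KO_drug. Its mean was lowest in Het and highest in KO_drug, and the rise in KO_drug against Het (log2 change 0.99, SE 0.20, adjusted p 0.00329) was called in every alternative. The steps from Het to KO (log2 0.50, adjusted p 0.0575) and from KO to KO_drug (log2 0.49, adjusted p 0.0954) were not. Rpe, the epimerase, fell in KO from 39.6 ± 7.19 CPM to 31.3 ± 1.81 CPM (log2 change -0.34, SE 0.13, adjusted p 0.0467), with overlap. That call was lost without any 1 of Het 1, Het 2, KO 2, KO 4, KO 5 or KO 6, under RLE scaling, under total-count scaling, in DESeq2, with no filter, on deposited FPKM and without KO 5 and KO 6 together (adjusted p 0.0183 to 0.382 over 15 alternatives), and the change under total-count scaling was 0.17. Tkt (transketolase) and Taldo1 (transaldolase) were not called, although KO_drug was above all Het and all KO libraries for Tkt (141 ± 23.8 CPM, 154 ± 8.68 CPM and 178 ± 13.2 CPM in Het, KO and KO_drug).

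Beyond the 38 genes, 102 of 106 further genes of glucose metabolism and its control were tested. In KO against Het 21 rose and 28 fell, in KO_drug against KO 20 rose and 8 fell, and in KO_drug against Het 18 rose and 11 fell. These counts stand beside 40.7%, 19.8% and 21.4% of all tested genes called in the 3 comparisons, as do those of each list named next. Among 18 other glycolysis and lactate genes, 5 rose and 3 fell in KO. Slc16a3, the lactate exporter MCT4, rose in KO (log2 change 4.19, SE 0.63, adjusted p 0.000245) and fell with the agonist (log2 change -2.02, SE 0.52, adjusted p 0.0176). It had 279 counts in KO against 10 in Het (ratio of levels 19.0, 95% interval 10.2 to 40.0, which covers counting error only). Pfkfb4, another enzyme of fructose 2,6-bisphosphate, fell with the agonist (log2 change -2.29, SE 0.41, adjusted p 0.00305).

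Of the 6 lists of further genes, pyruvate oxidation and transport had the largest share called with the agonist, where 6 of 11 genes rose and 1 fell. In KO, 2 of the 11 rose and 5 fell. Pyruvate dehydrogenase kinases, which switch off the entry of pyruvate into the citric acid cycle, led it. Pdk1 averaged 139 ± 33.3 CPM (Het), 48.4 ± 12.3 CPM (KO) and 176 ± 47.4 CPM (KO_drug) and rose with the agonist (log2 change 1.86, SE 0.24, adjusted p 0.000673). Pdk2 fell in KO (log2 change -0.82, SE 0.12, adjusted p 0.00027) and rose with the agonist (log2 change 1.26, SE 0.13, adjusted p 0.000207). Pdk4, the fasting-induced form, rose in KO (log2 change 2.66, SE 0.35, adjusted p 9.31e-05). It averaged 6.49 ± 2.08 CPM (Het), 41.0 ± 17.3 CPM (KO) and 32.3 ± 10.6 CPM (KO_drug). Unlike those of Pdk1 and Pdk2, its mean was not higher in KO_drug than in KO. Of 14 other gluconeogenesis and shuttle genes, 3 rose and 2 fell in KO, and 3 rose and 0 fell with the agonist. Fbp2, the muscle fructose bisphosphatase, had 0 counts in Het and 219 in KO, at least 49.6-fold higher against 3 counts over the Het libraries. Slc25a13, the aspartate and glutamate carrier, fell in KO (log2 change -0.80, SE 0.17, adjusted p 0.00228) and rose with the agonist (log2 change 0.74, SE 0.17, adjusted p 0.00916), and Mdh1, cytosolic malate dehydrogenase, rose with it (log2 change 0.64, SE 0.15, adjusted p 0.0122).

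Of 19 other glycogen genes, 5 rose and 6 fell in KO, and 3 rose and 2 fell with the agonist. Phkb, a subunit of phosphorylase kinase, rose in KO (log2 change 1.04, SE 0.13, adjusted p 5.51e-05). Pgm1, listed under that symbol in the table and a phosphoglucomutase, rose in KO (log2 change 1.22, SE 0.18, adjusted p 0.000196) and fell with the agonist (log2 change -1.13, SE 0.18, adjusted p 0.00167). Pygb, the brain phosphorylase, fell with the agonist (log2 change -1.27, SE 0.27, adjusted p 0.00658). Of 10 other pentose phosphate and fructose genes, 1 rose and 3 fell in KO and 1 moved each way with the agonist. Sord, sorbitol dehydrogenase, fell (log2 change -0.72, SE 0.17, adjusted p 0.00539), as did Prps1, which makes phosphoribosyl pyrophosphate (log2 change -0.51, SE 0.13, adjusted p 0.00638), though its change was 0.02 under total-count scaling. Shpk, sedoheptulokinase, rose with the agonist (log2 change 0.68, SE 0.14, adjusted p 0.00601), and Pgm2l1, glucose 1,6-bisphosphate synthase, fell (log2 change -0.63, SE 0.20, adjusted p 0.0434).

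Of 30 regulators of glucose genes, 5 rose and 9 fell in KO, and 5 rose and 1 fell with the agonist, shares near those of all tested genes (40.7% and 19.8%). Mlxipl (ChREBP), the transcription factor that answers to sugar phosphates, averaged 27.8 ± 6.69 CPM (Het), 12.2 ± 3.47 CPM (KO) and 51.6 ± 16.04 CPM (KO_drug), and rose with the agonist (log2 change 2.07, SE 0.27, adjusted p 0.000654). Srebf1, which encodes the lipogenic factor SREBP-1 and is a known LXR target, rose with it too (log2 change 2.79, SE 0.45, adjusted p 0.00203). Hnf4a, a factor that maintains hepatocyte identity, fell in KO from 838 ± 79.3 CPM to 439 ± 23.8 CPM (log2 change -0.93, SE 0.13, adjusted p 0.000194), and Vegfa, an angiogenic factor induced by low oxygen, fell as well (log2 change -0.85, SE 0.15, adjusted p 0.000678).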

How the data were processed

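Whole-liver RNA of 12 mice (3 groups of 4) was sequenced after extraction from frozen tissue with the RNeasy mini kit and TruSeq Stranded Total RNA libraries, per the labels' protocols. The authors deposited whole-number read counts per gene and library, not normalized, and FPKM per gene and library, per the file headers. FastQC 0.11.7, StringTie 2.1.3b and build mm10 come from the submitters' processing notes, with aligner, annotation and strand setting all not given in the sources used here. In the table, 3 columns without a name were not used.

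Counts were filtered with filterByExpr (minimum count 10, minimum total 15), scaled by TMM and fitted over all 12 libraries in edgeR 4.0.16 (R 4.3.3, quasi-likelihood, two-sided, group means). Benjamini-Hochberg adjustment ran over 13379 genes, and genes were called under 0.05. Standard errors come from the log2 change and its F statistic. The procedure was tested on simulated data. Nothing states that libraries sharing a number share a litter, so p-values measure the spread between these libraries. Same-numbered Het and KO_drug libraries correlated at -0.07 to 0.16 over 4 pairs, and in 3 of the 4 the own number correlated best. Numbers were not taken as pairs, and whether they pair the animals is not known.

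Alternatives were RLE and total-count scaling, DESeq2 1.42.0, no filter, limma 3.58.1 on log2(FPKM + 1), fits of 2 groups, a replicate block, and leaving out each library or KO 5 with KO 6. For isozyme ratios 0.5 was added to each count. The members and lists were chosen with earlier results of these data known. All members are named. Library values are given, in order of animal number (Het 1 to 4, KO 2, 4, 5 and 6, KO_drug 1 to 4), for members called with a log2 change of at least 1, isozyme pairs and 6 rate-controlling enzymes. From each further list the 2 called genes of smallest adjusted p in KO against Het and in KO_drug against KO are named, except 1 that is not reported here.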

Additional observations from a re-analysis of the deposited data

Results flagged for a closer look

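Of 114 group-by-gene sets of 4 libraries with any spread, 8 held 1 library that stood far from its 3 fellows, and chance marks about 1 group in 20. Slc2a2 was at 102 CPM in KO 4, below 143 to 147 CPM in the other KO libraries. Slc2a4 was at 0.106 CPM in Het 3 and at 0 in the other Het libraries. Hk3 was at 19.1 CPM in KO 2, above 8.49 to 10.3 CPM. Pfkl was at 32.6 CPM in KO 2, above 23.2 to 24.5 CPM. Tpi1 was at 298 CPM in KO_drug 4, below 398 to 415 CPM. Pkm was at 29.7 CPM in KO_drug 1, above 18.9 to 19.2 CPM. Pck2 was at 5.66 CPM in KO 2, below 7.73 to 8.03 CPM. Pygl was at 742 CPM in KO_drug 3, above 562 to 581 CPM.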

How the results depend on the processing

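In KO against Het, total-count scaling gave 19 members higher and 0 lower and FPKM gave 20 and 0, and fitting only these 2 groups gave 10 lower. In KO_drug against KO the same scalings gave 1 higher with 10 lower and 1 higher with 11 lower. No filter gave 3 higher and fitting 2 groups 2 higher. In KO_drug against Het total-count scaling and FPKM gave 13 and 11 called, all higher. DESeq2 called 12 with 3 lower, and fitting 2 groups called 4. The 1 fall there became 0 under RLE, total-count scaling, FPKM, no filter and fitting 2 groups. Without KO 5 and KO 6, KO_drug against KO held 7 calls, 2 of them higher. The replicate block left 4 calls, 0 of them higher, in KO_drug against KO and 2 falls in KO_drug against Het. The block ended 4 of 14 member calls in KO against Het (Gpi1, Pgk1, Pgls and Rpe), 8 of 12 in KO_drug against KO (Slc2a4, Hk2, Gckr, Pfkfb1, Pgam1, Pck2, Pygl and Khk) and 3 of 7 in KO_drug against Het (Pfkl, Gpi1 and G6pdx). Numbers 5 and 6 occur only in KO, so under the block KO 5 and KO 6 add nothing to comparisons with KO. Calls lost there cannot be put down to pairing rather than to fewer KO libraries. Under it Slc2a4 against KO had a log2 change of 3.16 (adjusted p 0.113, edgeR). Called over all genes in KO_drug against KO were 4255 under total-count scaling, 4923 with FPKM and 1741 under the block, against 2654. No label says whether equal numbers pair the animals, and 3 of 4 KO_drug libraries correlated best with the Het library of their own number.

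Leaving out 1 library gave 3 to 6 falls in KO against Het (3 without KO 2). It gave 6 to 11 calls and 2 to 5 rises in KO_drug against KO (6 calls without KO 2, KO 4 or KO_drug 3), and 3 to 7 calls, 3 to 6 rises and 0 to 3 falls in KO_drug against Het (3 calls without Het 2). The log2 ratio of Slc2a1 to Slc2a2 ranged from -0.53 to 0.83 in KO_drug against KO.

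Signs turned in KO against Het under total-count scaling and FPKM for Gckr (0.37 and 0.36), Tpi1 (0.17 and 0.18), Pgk1 (0.083 and 0.095), Pgam1 (0.48 and 0.48), Eno1 (0.50 and 0.52), Fbp1 (0.24 and 0.23), Pgls (0.10 and 0.11), Rpe (0.17 and 0.19), Taldo1 (0.18 and 0.18) and Prps1 (0.019 and 0.019). They turned for Pfkm (-0.10 with the block, -0.18 without KO 5 and KO 6), Pcx (-0.051 and -0.049) and Pfkfb1 (-0.046 fitting 2 groups, -0.093 without KO 5 and KO 6). Leaving out 1 library gave -0.15 to 0.21 for Pfkfb1, -0.22 to 0.12 for Eno1 and -0.0403 to 0.32 for Pcx. In KO_drug against KO, Gpi1 ran from -0.15 to 0.00077 leaving out 1 library and was 0.044 without KO 5 and KO 6, Pgk1 was -0.0051 with FPKM, and Fbp1 was 0.086 with the block and 0.14 without KO 5 and KO 6. Of these, Pgk1, Pgls, Rpe and Prps1 were called in KO against Het. Of members called under no setting, 3 of 6 in KO against Het (Gapdh, Gys2 and Pygl), 16 of 18 in KO_drug against KO and 13 of 20 in KO_drug against Het changed sign under at least 1. The cause of these changes was not tested.

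Depth limits Slc2a4 most, since it rests on 2, 13 and 324 counts per group. With 4 libraries a group, no exact test of a ratio can go below 0.0286.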
